A study of Mus musculus with 24 samples.

Results

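The irradiation response of splenic B cells was measured in Trp53+/+ mice of the strain C57/Bl6, aged 8 weeks. B cells were enriched from the spleen with magnetic beads against B220, a surface form of CD45 carried by B cells, after the red blood cells had been lysed. Unstressed animals gave 4 samples, and animals taken 4 h after a single whole-body exposure to 7 Gy of ionizing radiation (IR) gave 4 samples, so that 8 of the 24 RNA-Seq samples of the series entered the comparison. The remaining samples come from Trp53-/- mice, in which the gene for p53 is disrupted, and from the non-B cells that passed through the B220 column. The samples carry a replicate number that names no animal, and only 1 dose and 1 time were measured. A gene was tested when its RPKM, the number of reads scaled to the length of the gene and to all reads on exons, was above 1 in at least 1 of the 8 samples, which left 13821 of 21671 genes. Hif3a, Rcan2 and Ppic entered with a highest RPKM of 1.001, 1.001 and 1.002, and Cks1brt, Cd40lg and Abi3bp stayed out with 1, 1 and 0.999.

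IR breaks DNA, and the kinase Atm answers by stabilising p53, the transcription factor encoded by Trp53. p53 binds DNA as a tetramer on a pair of short repeats and switches on genes that stop the cell cycle, repair DNA and start apoptosis, together with Mdm2 and other inhibitors of its own activity. Atm also signals to NF-kB, a factor of inflammation and lymphocyte survival. Mature splenic B cells are resting cells that recirculate between blood and lymphoid follicles, and they are known to die readily after IR.

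The depth of the samples, estimated from the steps between the lowest RPKM values, was 7530000 to 10155000 reads on exons in the unstressed samples and 4735000 to 7635000 in the irradiated samples (exact permutation test, two-sided, p = 0.0571, n = 4 per group). One read on a gene of 2 kb was then worth an RPKM of 0.0492 to 0.1056. Genes for olfactory and vomeronasal receptors, which lymphocytes are not known to use, gave a check on stray reads. Of 1409 such genes, 5.25% to 7.38% were above 0 in the unstressed samples, against 36.6%, 47.3%, 6.81% and 15.8% in irradiated samples 1 to 4 (exact permutation test, two-sided, p = 0.0571, n = 4 per group). Irradiated samples 1 and 2 therefore stand apart at low values, and counts of the gene lists below are also given from a fit without them, called the reduced fit. Reads with the same position had been reduced to 1, which limits the RPKM of abundant genes. The highest RPKM of a sample corresponded to 1455.5 to 1838.5 reads per kilobase, and a kilobase offers 2000 start positions over both strands, so the RPKM of the most abundant genes moved with depth. A correction for this limit was added after the values were seen. The B cell label held, since all 10 B cell markers were expressed, with Cd79b, a subunit of the B cell receptor, at a mean RPKM of 179 and 172 in unstressed and irradiated samples. Their summed RPKM was 1168.1 to 1371.6 in unstressed and 1050.5 to 1183.9 in irradiated samples. Markers of other cells were present too. Single macrophage markers reached the level of B cell markers, with unstressed means of 110 for C1qc, 105 for Pax5 and 97.1 for Blk. The limit on duplicate reads acts at such levels, so that similar RPKM values, and the sums of abundant markers, are no measure of similar abundance. The sums in unstressed samples were lower than that of B cell markers, at 585.7 to 793.5 for 9 monocyte or macrophage markers, 70.03 to 80.66 for 10 T cell markers and 65.3 to 98.0 for 8 NK cell markers. Sums in irradiated samples were 485.7 to 705.6, 47.9 to 84.0 and 46.2 to 89.2, and those of neutrophil (9 markers), platelet (8) and plasma cell markers (7) overlapped between the groups as well. The p-values of the sums of these 6 cell types and of B cells, adjusted over 9 cell types, were 0.257 or higher (exact permutation tests). Single markers changed although the sums overlapped. By the definition of differentially expressed genes (DEGs) in the next paragraph, the B cell markers Cd22 and Blk, the macrophage marker Emr1 (from 43.1 to 22.4, log2 fold change -0.93 ± 0.15) and the T cell marker Cd8a (from 8.84 to 5.72, -0.65 ± 0.22) were downregulated, and the plasma cell marker Sdc1 (from 15.9 to 25.2, 0.65 ± 0.16) was upregulated. The summed RPKM of 9 erythroid markers was 78.5 to 167.1 in unstressed and 60.1 to 70.5 in irradiated samples, without overlap (exact permutation test, p = 0.0286, the smallest that 4 against 4 can give, and 0.129 after adjustment). The sum of 8 dendritic cell markers was 65.4 to 86.2 in unstressed and 88.9 to 96.4 in irradiated samples (exact permutation test, p = 0.0286, and 0.129 after adjustment), with 2 markers up (Bst2 and Zbtb46) and 2 down (Xcr1 and Clec9a). Bst2, the most abundant of the 8 and also a gene that answers interferon, went from a mean of 37.3 to 56.3. In such bulk samples, fewer cells of a type and less RNA per cell cannot be told apart.

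**Figure D1:**
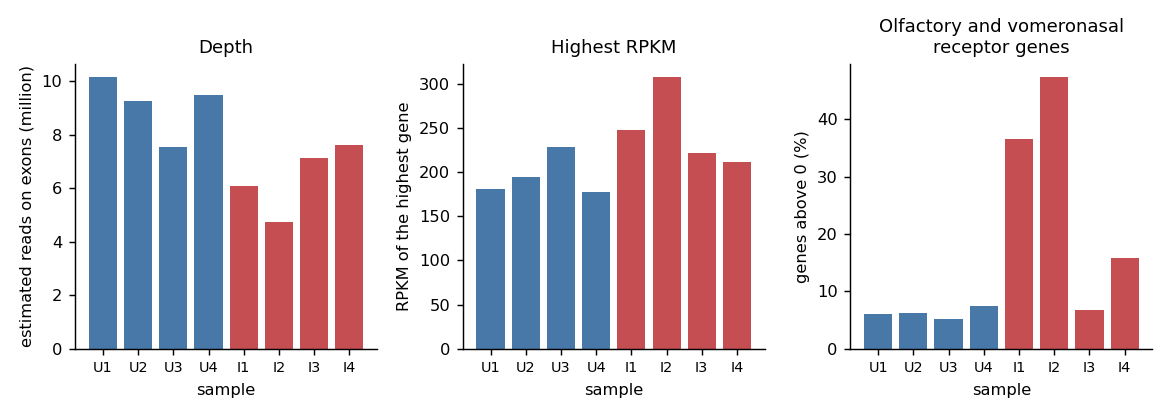
Depth, highest RPKM and receptor genes in each sample. Bars show the estimated number of reads on exons (left), the RPKM of the highest gene (middle) and the percentage of 1409 receptor genes above 0 (right) in unstressed samples U1 to U4 (blue) and irradiated samples I1 to I4 (red). Sample I2 has the lowest depth, 4735000 reads, the highest RPKM, 307.4, and the highest share of receptor genes, 47.3%.

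Samples of the same group ranked the genes alike, with Spearman correlations across genes of 0.986 to 0.993 among unstressed and 0.975 to 0.991 among irradiated samples, against 0.916 to 0.937 between the groups. DEGs were those with an adjusted p under 0.05 in limma and an absolute log2 fold change above 0.58, on the scale of log2(RPKM + 0.5). IR changed 3414 of the 13821 genes, 1713 up (12.4%) and 1701 down (12.3%). Without irradiated samples 1 and 2, 13206 genes were tested, 1729 were up (13.1%) and 1857 down (14.1%). Of the upregulated DEGs 1586 were still tested and 1428 were called again, and of the downregulated DEGs all 1701 were tested and 1493 were called again. For 6385 genes (46.2%) all irradiated samples lay on 1 side of all unstressed samples. The rises reached further than the falls. A log2 fold change above 1 was found for 780 upregulated and below -1 for 553 downregulated DEGs, and the next steps of 2 and 3 left 173 against 42 and 54 against 4 genes. Above 4 stood 24 upregulated DEGs and no downregulated DEG. The median log2 fold change was 0.95 among upregulated and -0.83 among downregulated DEGs.

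**Figure D2:**
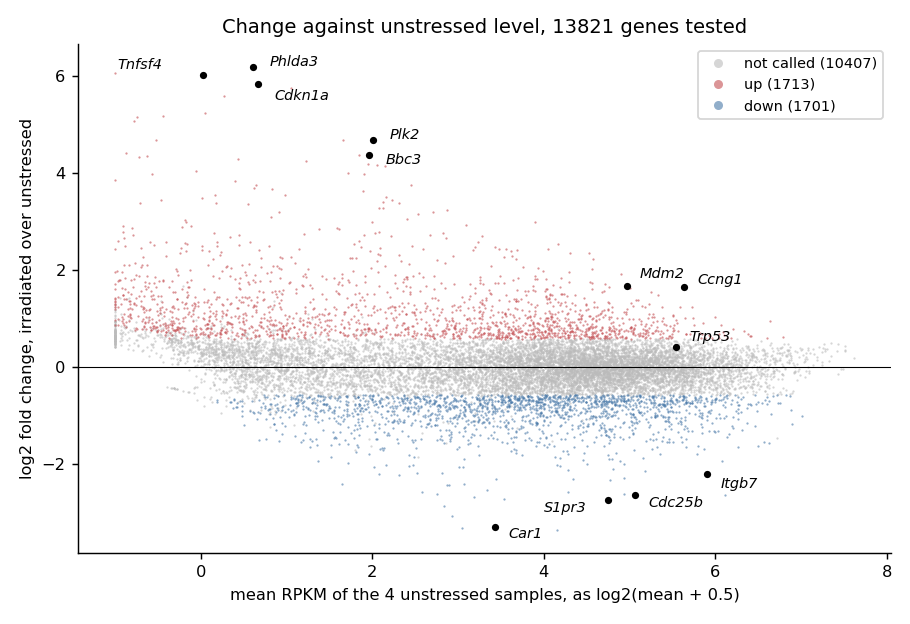
Change of each gene against its level in unstressed B cells. Each point is a tested gene, with the mean RPKM of the 4 unstressed samples on the x axis, as log2(mean + 0.5), and the log2 fold change of irradiated over unstressed samples on the y axis. Upregulated DEGs are red (1713), downregulated DEGs blue (1701) and the others grey (10407). The rises above 4 belong to genes that were low before IR, such as Phlda3 and Cdkn1a, and 1 of the 148 genes above an RPKM of 100 rose.

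The share of rises and falls differed with the level before IR. Among the 2544 genes with a mean RPKM of 1 to 5 in unstressed samples, 16.3% rose and 14.3% fell, and among the 4646 genes at 5 to 20 the shares were 11.9% and 15.5%. Of the 5083 genes at 20 to 100, 5.78% rose and 11.6% fell. Above 100, where the limit on duplicate reads acts most, 1 of 148 genes rose and 9 fell, and the median log2 fold change of these genes was 0.12, or 0.02 with the correction for that limit. Genes below 1 in unstressed samples passed the filter mostly through their irradiated values, so the 42.2% of 675 genes below 0.5 that rose, and the 22.9% of 725 genes at 0.5 to 1, followed in part from the filter. By the reduced fit, 68.5% of 232 and 25.7% of 553 genes of these bands rose. For 16 upregulated DEGs all unstressed samples were listed at 0, and for 2 downregulated DEGs all irradiated samples were.

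Several of the largest rises belonged to known p53 targets that resting B cells barely expressed. Genes were named by a rule on the size of the change, the level and the list, and further list members were named for their known roles after their values had been seen. Phlda3, which binds membrane phosphoinositides and blocks the kinase Akt (chr1:137662696-137665713, + strand, mm9), had an RPKM of 1.06, 1.02, 1.07 and 0.923 in the unstressed samples and 98.9, 100.3, 117 and 121 in the irradiated samples. Its log2 fold change of 6.17 ± 0.09 (SE; adjusted p = 4.97e-11) was the largest of all DEGs. Cdkn1a, the inhibitor of cyclin-dependent kinases that holds cells in G1 (chr17:29227924-29237667, + strand), had an RPKM of 1.36, 1.01, 1.06 and 0.893 in the unstressed samples and 82.3, 83.5, 94.2 and 97.8 in the irradiated samples. Its log2 fold change was 5.83 ± 0.11 (adjusted p = 1.57e-10), and the irradiated samples lay close together, far above all unstressed samples. Tnfsf4, the ligand of the T cell costimulator OX40 (chr1:163325581-163348337, + strand), was at 0.483, 0.73, 0.651 and 0.194 in the unstressed samples and 56.4, 58.9, 74.1 and 67.5 in the irradiated samples, a log2 fold change of 6.02 ± 0.18 (adjusted p = 2.57e-09). The transcript 1700007K13Rik (chr2:28317521-28321852, - strand) was listed at 0 in all unstressed samples and at 23.5, 26.4, 41.9 and 42.5 in the irradiated samples, so that no fold change is given. In irradiated samples 3 and 4 it stood above samples 1 and 2.

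The next in order had roles in the spindle, in signalling and in transcription. Psrc1, a microtubule-binding protein of the spindle, was at 2.3, 1.32, 1.48 and 1.18 in the unstressed samples and 101, 104, 115 and 112 in the irradiated samples (log2 fold change 5.74 ± 0.14). Epha2, a receptor tyrosine kinase for ephrins, rose from 0.709 to 56.5 on average and Zfp365, a zinc finger protein linked to genome stability, from 0.536 to 38.3, with log2 fold changes of 5.58 ± 0.17 and 5.22 ± 0.15. Tex15, known from meiotic recombination and gene silencing in the testis, had an RPKM of 0.103, 0.124, 0.083 and 0.066 in the unstressed samples and 15.4, 15.7, 29.7 and 25.1 in the irradiated samples. Grhl3, a transcription factor of epithelia, rose from 0.0808 to 18.9. All 5 were low at rest, and the highest unstressed value among them was the 2.30 of Psrc1 in sample 1. Plk2, a polo-like kinase, rose from 3.51 to 101 and Gtse1, a microtubule-associated protein that restrains p53, from 2.64 to 77.5, with log2 fold changes of 4.68 ± 0.11 and 4.67 ± 0.16. All 12 rises of this group kept their call in every alternative that was run.

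**Figure D3:**
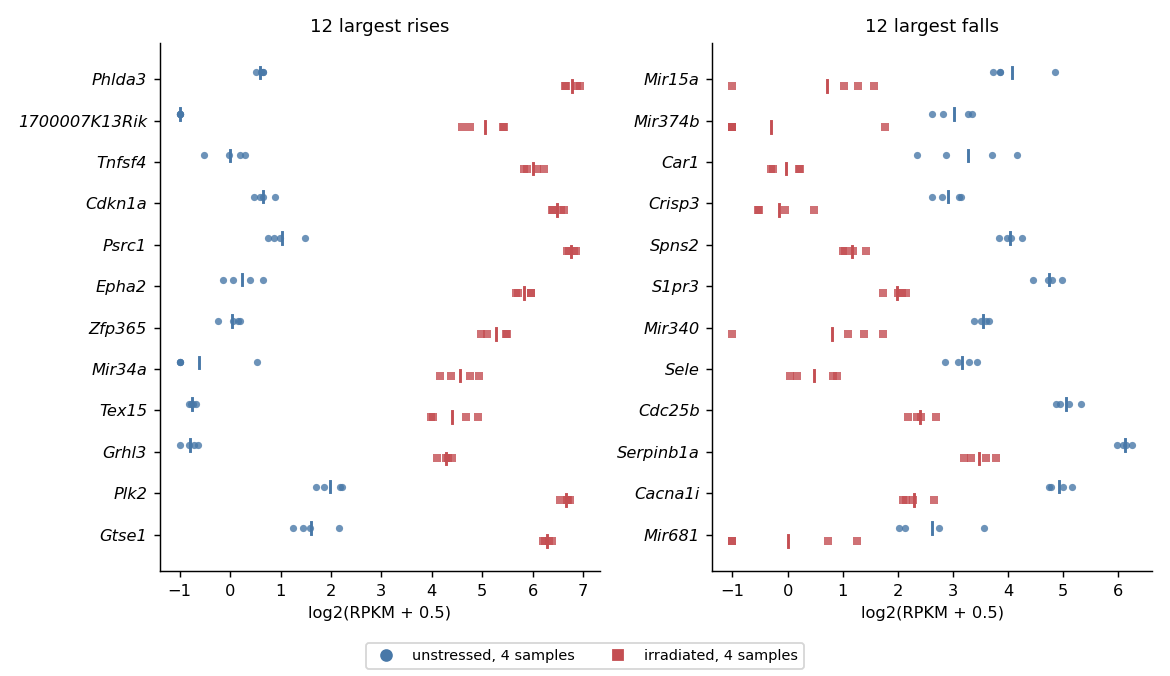
The 12 largest rises and the 12 largest falls in every sample. Points show log2(RPKM + 0.5) of each gene in the 4 unstressed (blue circles) and the 4 irradiated samples (red squares), and short lines the group means. Genes qualified with a mean RPKM of at least 5 in the higher group and without overlap between the groups. A value of 0 lies at -1. The irradiated samples of Phlda3 lie between an RPKM of 98.9 and 121.4, against 0.923 to 1.07 in unstressed samples.

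Promoters of 300 bases (250 before to 50 after a start site) from RefSeq were found for 10638 of the tested genes (77.0%), for 9 of the 12 largest rises and for 29 of the 32 downregulated genes of mitosis described further on. A p53 element was taken as a pair of 10-base sites of the form RRRCWWGYYY without spacer, with both cores CWWG intact and at most 3 mismatches in all. The form reads the same on both strands. Such an element occurred in 0.572% of all 32851 promoters of the table. Of the 12 largest rises, 9 had a promoter (75%, with a mean of 1.33 promoters a gene), and 3 of these held an element, each with at most 2 mismatches. Of the 12 largest falls, 6 had a promoter, and none of these held one. Since fewer than 80% of these genes and of all DEGs had a promoter, no share is compared with that of the table. The promoters are printed in capitals where the element lies, because they belong to genes with some of the largest rises. They are given in GRCm38.p6 at chr17:29090729-29091028 (+ strand) for Cdkn1a, chr10:67912613-67912912 (- strand) for Zfp365 and chr15:85859696-85859995 (+ strand) for Gtse1, with the element starting 51 and 63 bases before and 1 base before the start site of that promoter. Cdkn1a and Gtse1 had 2 promoters each, and the printed one was taken for its element.
Cdkn1a: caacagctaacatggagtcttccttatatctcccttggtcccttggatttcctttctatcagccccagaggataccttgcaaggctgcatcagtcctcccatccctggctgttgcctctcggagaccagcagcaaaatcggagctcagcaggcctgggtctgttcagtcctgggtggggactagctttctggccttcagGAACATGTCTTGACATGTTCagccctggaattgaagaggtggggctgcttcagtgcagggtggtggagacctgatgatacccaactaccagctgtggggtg
Zfp365: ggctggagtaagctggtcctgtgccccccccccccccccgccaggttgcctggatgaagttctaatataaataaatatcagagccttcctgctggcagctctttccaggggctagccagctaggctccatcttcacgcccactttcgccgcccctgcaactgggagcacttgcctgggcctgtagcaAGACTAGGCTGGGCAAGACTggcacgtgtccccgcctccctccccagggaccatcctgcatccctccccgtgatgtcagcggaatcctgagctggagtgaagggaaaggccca
Gtse1: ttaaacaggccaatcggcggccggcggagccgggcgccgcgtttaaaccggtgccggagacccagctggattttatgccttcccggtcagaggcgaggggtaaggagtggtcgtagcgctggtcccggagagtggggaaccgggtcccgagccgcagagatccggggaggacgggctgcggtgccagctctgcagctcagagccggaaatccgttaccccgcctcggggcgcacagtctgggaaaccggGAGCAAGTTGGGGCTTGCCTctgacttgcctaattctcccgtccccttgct
The elements of Cdkn1a and Gtse1 differ from the form at 1 base and that of Zfp365 at 2 bases. A match describes the sequence and is no proof of binding.

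**Figure D4:**
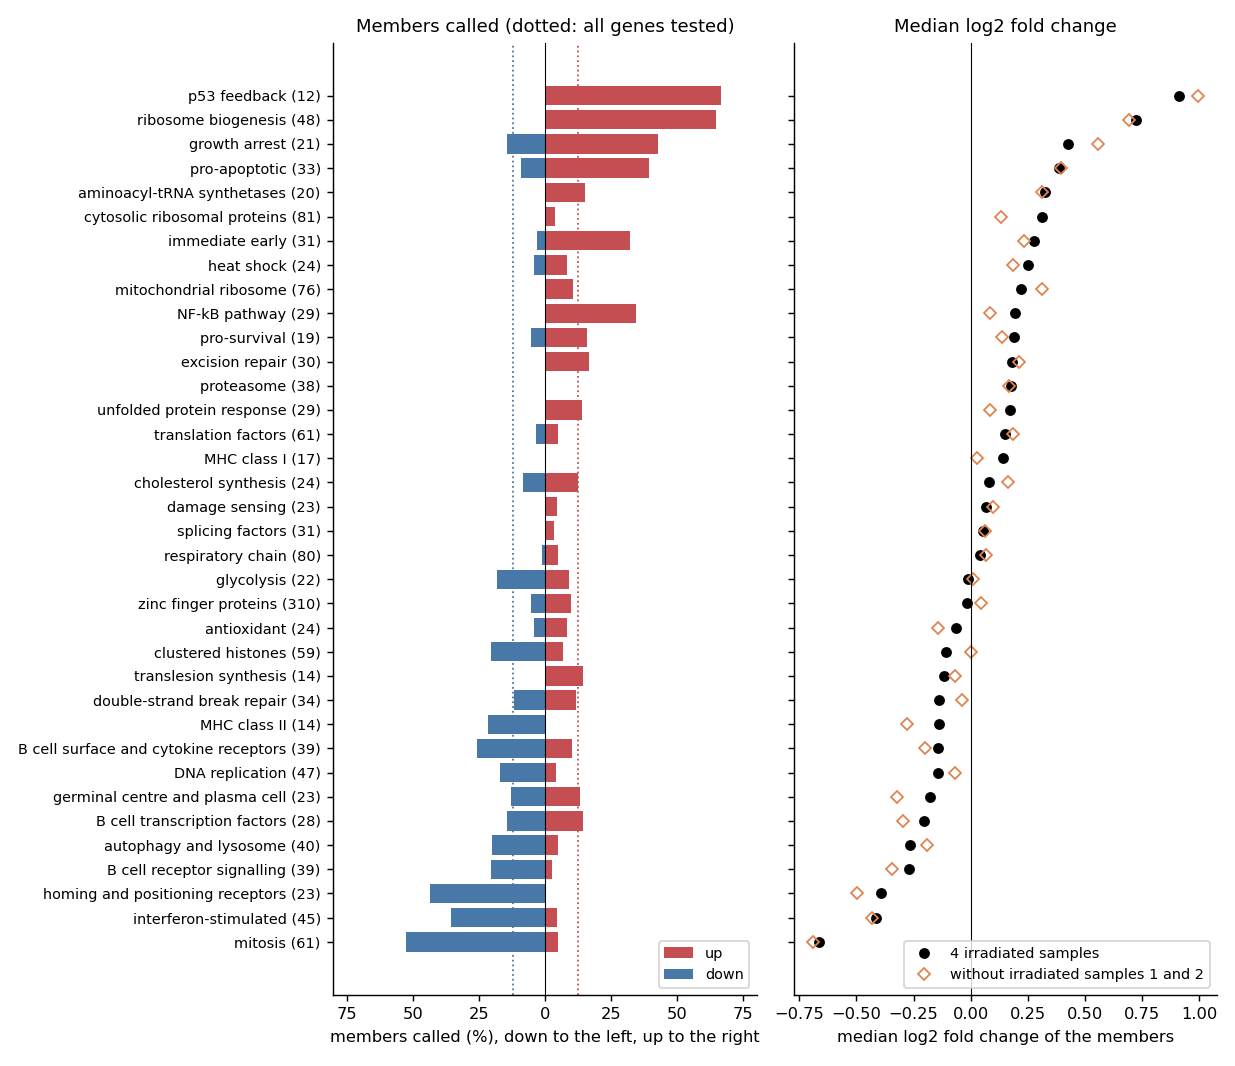
Share of called members and median change of 36 gene lists. The left panel shows the percentage of tested members that were upregulated (red, to the right) or downregulated DEGs (blue, to the left), with the number tested in brackets and dotted lines at 12.4% and 12.3%, the shares among all tested genes. The right panel shows the median log2 fold change of the members with all irradiated samples (black) and in the reduced fit, without irradiated samples 1 and 2 (open diamonds). The p53 feedback list and ribosome biogenesis lie at the top, with medians of 0.91 and 0.72, and mitosis at the bottom, with -0.66.

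The p53 feedback list, which holds regulators of p53 and also p53 targets such as Phlda3, had the largest median. Each share of a list is to be read against the 12.4% up and 12.3% down of all genes tested, and that in the reduced fit against 13.1% and 14.1%. Of 14 measured genes, 12 passed the filter, and 8 of them rose and none fell, with the same counts in the reduced fit and a median log2 fold change of 0.91, against 0.01 over all genes tested. Mdm2, the ubiquitin ligase that degrades p53 (chr10:117125944-117147814, - strand), had an RPKM of 29.1, 31.1, 30.4 and 32.7 in the unstressed samples and 96.7, 106, 98.2 and 95 in the irradiated samples. It was already well expressed at rest and its log2 fold change of 1.67 ± 0.06 (adjusted p = 1.47e-08) left every irradiated sample above every unstressed sample. Ccng1, a cyclin that recruits a phosphatase to Mdm2, was at 51, 48.1, 55.7 and 42.1 in the unstressed samples and 152, 171, 153 and 139 in the irradiated samples (log2 fold change 1.64 ± 0.09), and in the irradiated samples it was among the most abundant of all DEGs. Zmat3, an RNA-binding protein, rose from 5.89 to 41.4 (log2 fold change 2.71 ± 0.09). Ppm1d, the phosphatase that reverses Atm signalling, had a log2 fold change of 1.55 ± 0.09, Trp53inp1, a cofactor of p53, 1.02 ± 0.07, and Mdm4, the partner of Mdm2, 0.77 ± 0.08. Trp53 itself was at 46.4, 47.9, 45.6 and 44.8 in the unstressed samples and 58.7, 65.8, 59.6 and 63 in the irradiated samples. All irradiated values were higher, and with a log2 fold change of 0.42 ± 0.06 (adjusted p = 0.000199) the gene stayed below the limit of 0.58. Wrap53, whose gene overlaps Trp53 on the opposite strand, had a log2 fold change of 0.80 ± 0.09, and because the library kit records no strand, reads shared by the overlap cannot be told apart. Trp63 and Trp73, the relatives of Trp53, stayed below the filter.

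Of 21 tested growth arrest genes, 9 rose (42.9%) and 3 fell (14.3%), a share of falls near that of all genes tested. In the reduced fit 10 rose and 4 fell. After Cdkn1a and Plk2, the largest rise was that of Sesn2, a sestrin that restrains mTORC1, which had an RPKM of 4.04, 3.89, 4.23 and 4.5 in the unstressed samples and 48, 43.9, 55.1 and 53.9 in the irradiated samples (log2 fold change 3.44 ± 0.09). Sestrins differed among themselves, since Sesn3 fell by 1.04 on the log2 scale. The inhibitors of cyclin-dependent kinases also diverged. Cdkn2b and Cdkn1c rose, with log2 fold changes of 2.58 ± 0.20 and 1.01 ± 0.21, and Cdkn1b, the p27 inhibitor of resting lymphocytes, had -0.93 ± 0.06 and Cdkn2d -1.20 ± 0.20. Ddit4, a further brake on mTORC1, had a log2 fold change of 1.53 ± 0.12 and Gadd45g, a stress sensor, 1.40 ± 0.07.

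Genes that promote apoptosis rose more often than they fell. Of 33 tested members, 13 rose (39.4%) and 3 fell (9.09%), with a median log2 fold change of 0.38, and in the reduced fit 14 rose and 4 fell. Bbc3, the BH3-only protein PUMA that frees Bax and Bak from their guardians (chr7:16894965-16903554, + strand), had an RPKM of 3.54, 3.78, 3.25 and 2.95 in the unstressed samples and 81, 77.6, 77.1 and 78.9 in the irradiated samples. The irradiated samples differed little from each other, and the log2 fold change was 4.36 ± 0.08 (adjusted p = 1.57e-10). Among death receptors, Tnfrsf10b, the receptor of TRAIL, was at 3.35, 4.16, 3.29 and 4.08 in the unstressed samples and 36.5, 38.9, 42.9 and 42.2 in the irradiated samples (log2 fold change 3.27 ± 0.10), and Fas, which germinal centre B cells are also known to carry, at 8.37, 5.92, 7.05 and 5.03 in the unstressed samples and 45.4, 43, 50.2 and 48 in the irradiated samples (log2 fold change 2.75 ± 0.13). Pidd1, the scaffold that activates caspase-2, rose from 6.02 to 59. The BH3-only genes Pmaip1 and Bcl2l11 had log2 fold changes of 2.41 ± 0.06 and 1.82 ± 0.08, the pore-forming Bax 1.91 ± 0.07 and Apaf1, the core of the apoptosome, 2.05 ± 0.07. Against these, Casp9, the caspase that Apaf1 activates, fell by 1.54 on the log2 scale and Bmf, a BH3-only gene, by 1.23.

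Of 19 tested pro-survival genes, 3 rose (15.8%, near the share of all genes) and 1 fell, with the same counts in the reduced fit. Bcl2l1, which encodes the guardian Bcl-xL, was at 9.38, 6.63, 6.32 and 10.9 in the unstressed samples and 13, 14.5, 20.6 and 18.1 in the irradiated samples (log2 fold change 0.97 ± 0.19). Its irradiated samples were above all unstressed samples. Bcl2a1b and Bcl2a1d, near-identical copies that share reads and are uncertain for that reason, had log2 fold changes of 0.70 ± 0.09 and 0.92 ± 0.16, and Bcl2l2 -0.67 ± 0.11. All of these were smaller than the rise of Bbc3.

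Sensors of DNA damage were rarely DEGs. Of 23 tested members 1 rose, Chek2, the checkpoint kinase below Atm, which had an RPKM of 11.5, 9.55, 9.79 and 10.2 in the unstressed samples and 32.8, 29, 41.3 and 38.5 in the irradiated samples (log2 fold change 1.73 ± 0.11), and none fell. Without irradiated samples 1 and 2, 2 rose and none fell. Among 30 genes of excision repair 5 rose (16.7%) and none fell, and in the reduced fit 6 rose and none fell. Ercc5, the nuclease that cuts on the 3′ side of a bulky lesion, was at 13.2, 12, 11.1 and 11.6 in the unstressed samples and 41.1, 43.3, 44.5 and 42.1 in the irradiated samples (log2 fold change 1.80 ± 0.07). Nthl1, a DNA glycosylase, rose from 2.54 to 10.1 and Apex1, the endonuclease of base excision repair, from 16.9 to 30.2. Among 34 genes of double-strand break repair 4 rose and 4 fell (11.8% each, near the shares of all genes), with Rad51d, a gene of homologous recombination, at a log2 fold change of 1.15 ± 0.08 and Fancm, a helicase of the Fanconi pathway, at -0.94 ± 0.09. By the reduced fit, 7 rose and 2 fell. Of 14 genes of translesion synthesis 2 rose and none fell, with the same counts in the reduced fit. These were Polk, a polymerase that copies past damaged bases, with an RPKM of 8.98, 9.68, 8.9 and 9.12 in the unstressed samples and 58.9, 62.2, 65.4 and 61.5 in the irradiated samples (log2 fold change 2.69 ± 0.06), and Rev1, its scaffold (log2 fold change 0.69 ± 0.08). Polk lay between 58.9 and 65.4 in irradiated samples, and no unstressed sample exceeded 9.68.

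Of 24 tested antioxidant genes 2 rose and 1 fell (2 and 2 of 23 in the reduced fit), both below the shares of all genes. Txnrd1, thioredoxin reductase, rose from 24.6 to 52.8 and Gls2, a mitochondrial glutaminase, from 1.11 to 2.52, whereas catalase, Cat, was at 51.8, 50.2, 54 and 48.6 in the unstressed samples and 33.7, 25.5, 23.1 and 23.7 in the irradiated samples (log2 fold change -0.95 ± 0.11).

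Of 29 tested genes of the NF-kB pathway, 10 were upregulated DEGs (34.5%) and none was a downregulated DEG, with a median log2 fold change of 0.19. In the reduced fit 7 rose and the median was 0.08, and with the correction for duplicate reads 10 rose and 1 fell. Ikbke, a kinase of the IKK family, had an RPKM of 19.1, 22.1, 16.6 and 12 in the unstressed samples and 102, 107, 98.5 and 94.4 in the irradiated samples (log2 fold change 2.52 ± 0.15, adjusted p = 4.67e-07). Icam1, an adhesion molecule, was at 32.8, 32, 35.2 and 32.6 in the unstressed samples and 84.1, 92.6, 89.2 and 82.1 in the irradiated samples (log2 fold change 1.38 ± 0.06). The feedback inhibitors rose by less. Tnfaip3, the ubiquitin editor A20, rose from 30.5 to 67.5, and Nfkbia, the inhibitor IkBa, and Nfkbie had log2 fold changes of 0.62 ± 0.10 and 0.59 ± 0.07. Other members were lower after IR by less than the limit of 0.58, among them Ltb, a subunit of lymphotoxin (-0.48 ± 0.08, adjusted p = 0.000797 in limma), Map3k14, the kinase NIK (-0.47 ± 0.08), Lta (-0.37 ± 0.08), Ikbkb (-0.33 ± 0.07) and Traf3 (-0.29 ± 0.06). The lowest log2 fold change in the list was -0.90, of a member that missed the limit on the adjusted p.

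Immediate early genes, transcription factors and phosphatases that cells switch on within minutes of a stimulus, included 10 upregulated (32.3%) and 1 downregulated DEG among 31 tested, and 11 and 2 in the reduced fit. Jun, a subunit of AP-1, had an RPKM of 22.1, 11.6, 13 and 12.3 in the unstressed samples and 58.2, 57.4, 62.5 and 61 in the irradiated samples (log2 fold change 2.03 ± 0.17). Fosl1, another subunit, rose from 0.0605 to 1.91 and Nr4a3, an orphan nuclear receptor, from 1.02 to 4.75. Junb had a log2 fold change of 1.22 ± 0.09 and Dusp1, which inactivates MAP kinases, 1.07 ± 0.23. Klf2, which keeps lymphocytes quiescent and in circulation, was the exception and fell by 1.34 on the log2 scale.

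Receptors that place lymphocytes in the spleen and in circulation were DEGs in 1 direction. Of 23 tested members, 10 fell (43.5%) and none rose, with a median log2 fold change of -0.39. The counts were the same in the reduced fit, and the median was -0.50. S1pr3, a receptor for sphingosine 1-phosphate, which is expressed by marginal zone B cells (chr13:51503987-51518166, + strand), had an RPKM of 31.1, 25.9, 27.3 and 21.5 in the unstressed samples and 3.5, 3.71, 2.82 and 3.91 in the irradiated samples. It was lower in every irradiated sample, with a log2 fold change of -2.75 ± 0.13 (adjusted p = 9.66e-08). Itgb7, the integrin chain of gut homing, was at 58.5, 65.2, 58.2 and 56.1 in the unstressed samples and 15.2, 14.3, 9.39 and 11.5 in the irradiated samples (log2 fold change -2.21 ± 0.13). S1pr4 was at 51.8, 53.4, 55 and 59.4 in the unstressed samples and 17.1, 14.3, 18.9 and 19.6 in the irradiated samples (log2 fold change -1.63 ± 0.10), and S1pr1, the receptor for exit from lymphoid organs, and S1pr2, the receptor that confines germinal centre B cells, had -1.56 ± 0.08 and -1.12 ± 0.36. Spns2, a transporter that exports sphingosine 1-phosphate, fell from 16 to 1.76 and was among the largest falls.

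Signalling from the B cell receptor gave 8 downregulated (20.5%) and 1 upregulated DEG among 39 tested genes, with a median log2 fold change of -0.27, and in the reduced fit 10 fell and none rose. Rasgrp2, an exchange factor for the GTPase Rap1, had an RPKM of 63.8, 71.1, 65.1 and 68.3 in the unstressed samples and 21.4, 18.4, 13.5 and 15.7 in the irradiated samples (log2 fold change -1.95 ± 0.12). Malt1, a protease of antigen receptor signalling, fell from 57.8 to 32.8 and Blk, a Src family kinase, from 97.1 to 56.6. Btk, the kinase that activates phospholipase C, had a log2 fold change of -0.68 ± 0.07. Cd22, an inhibitory co-receptor, was at 108, 117, 127 and 113 in the unstressed samples and 83.4, 76.7, 67.7 and 76.6 in the irradiated samples (log2 fold change -0.61 ± 0.08), close to the limit of 0.58. The receptor subunits themselves were not DEGs, with Cd79a from 136 to 125 and Cd79b from 179 to 172 in mean RPKM. The limit on duplicate reads acts at these levels, so a fall of the subunits can be understated. With the correction for duplicate reads, 11 genes of the list fell and 1 rose, with a median of -0.34, and the log2 fold change of Cd22 was -0.87.

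Of 39 tested surface molecules and cytokine receptors, 10 fell (25.6%) and 4 rose (10.3%), a share of rises below that of all genes. Without irradiated samples 1 and 2, 11 fell and 2 rose. Cd80, the costimulator that activated B cells show to T cells, had an RPKM of 7.07, 8.14, 5.99 and 5.94 in the unstressed samples and 67.3, 71.6, 68.3 and 62.7 in the irradiated samples (log2 fold change 3.23 ± 0.10, adjusted p = 3.26e-09). Tnfrsf18, a receptor of the TNF family known as GITR, rose from 21.6 to 59.2. Cd1d1, the lipid-presenting molecule, was at 49.2, 48.3, 51.2 and 39.3 in the unstressed samples and 16.9, 11.7, 23.2 and 23.7 in the irradiated samples (log2 fold change -1.34 ± 0.19), and its lowest values were those of irradiated samples 1 and 2. By the reduced fit, its change was -0.98. The receptors of microbial products Tlr3, Tlr4 and Tlr7 had log2 fold changes of -1.33 ± 0.21, -1.14 ± 0.13 and -0.83 ± 0.10. Macrophages are also known to use them, and 1 of the 9 macrophage markers, Emr1, fell as given above, with overlapping sums and no marker at 0. The part of such cells was not tested.

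Of 28 tested transcription factors of the B lineage, 4 rose and 4 fell (14.3% each, near the shares of all genes). In the reduced fit, and with the correction for duplicate reads, 4 rose and 7 fell. Mybl1, a Myb family factor of germinal centre B cells, had an RPKM of 8, 4.5, 5.67 and 1.78 in the unstressed samples and 24.1, 22.8, 33 and 30.6 in the irradiated samples (log2 fold change 2.49 ± 0.33), with a wide spread among the unstressed samples. Bhlhe41, a repressor, rose from 16.5 to 46.6 and Bach2, the factor that delays plasma cell differentiation, fell from 49.5 to 22.7, with log2 fold changes of 1.47 ± 0.11 and -1.11 ± 0.09. Of 23 genes of the germinal centre and plasma cells 3 rose and 3 fell (13% each, near the shares of all genes), with a median of -0.18. Without irradiated samples 1 and 2, 3 rose and 7 fell, with a median of -0.32. Mef2b, a factor of the germinal centre, was at 7.14, 4.57, 4.76 and 2.75 in the unstressed samples and 35.2, 34.3, 50.4 and 48.4 in the irradiated samples (log2 fold change 3.05 ± 0.23). Gcsam, a germinal centre signalling protein, was at 5.75, 2.82, 4.87 and 1.46 in the unstressed samples and 2.26, 1.86, 0.454 and 0.843 in the irradiated samples. The groups overlapped, and its call (log2 fold change -1.18 ± 0.41, adjusted p = 0.0363) was lost in several alternatives.

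The DEGs of antigen presentation belonged to MHC class II. Of 14 MHC class II genes, 3 fell (21.4%) and none rose, and in the reduced fit 4 fell and none rose. Their median unstressed RPKM was 95.2, a level at which the limit on duplicate reads acts. The median log2 fold change was -0.14, and with the correction for duplicate reads it was -0.28 and 4 fell. H2-Ob and H2-Oa, which form the H2-O inhibitor of peptide loading, were both downregulated DEGs. H2-Ob was at 109, 120.1, 131 and 111 in the unstressed samples and 62.8, 56.4, 65.2 and 68.2 in the irradiated samples (log2 fold change -0.90 ± 0.08). H2-Oa was at 88.3, 90.6, 96.4 and 78.4 in the unstressed samples and 54, 52.6, 45 and 54.4 in the irradiated samples (log2 fold change -0.77 ± 0.08). H2-Eb2 fell from 49.5 to 20.9. None of the 17 MHC class I genes was a DEG in either fit. H2-K1, the most abundant of them, was at 133 and 153 (log2 fold change 0.20 ± 0.10, adjusted p = 0.107).

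Genes of mitosis were the list with the most falls. Of 61 tested members, 32 fell (52.5%) and 3 rose, with a median log2 fold change of -0.66. By the reduced fit, 28 fell and 2 rose, with a median of -0.69. Cdc25b, the phosphatase that starts mitosis by activating Cdk1 (chr2:131012685-131024233, + strand), had an RPKM of 30.1, 34.1, 28.5 and 39.3 in the unstressed samples and 5.93, 4.85, 4.03 and 4.57 in the irradiated samples (log2 fold change -2.65 ± 0.13, adjusted p = 1.11e-07). All irradiated values were below 6 and all unstressed values above 28. Ndc80, a protein of the kinetochore, had a log2 fold change of -1.63 ± 0.12, Cdk1, the kinase of mitotic entry, -1.35 ± 0.21, and its cyclin Ccnb1, whose groups overlapped, -1.16 ± 0.30. The members that rose did not follow the others. Ckap2, a spindle protein, was at 4.75, 3.36, 3.22 and 2.56 in the unstressed samples and 27.3, 28, 33.5 and 33.4 in the irradiated samples (log2 fold change 2.99 ± 0.15), Spc25, a further protein of the kinetochore, at 4.73, 3.69, 3.72 and 2.57 in the unstressed samples and 17.5, 15.8, 25.9 and 22.8 in the irradiated samples (log2 fold change 2.33 ± 0.19), and Melk, a kinase, had a log2 fold change of 0.73 ± 0.22. The mitosis genes were low in these cells, with a median unstressed RPKM of 6.50. Of the 9 erythroid markers, which mark a population with dividing precursors, 7 were downregulated DEGs in the same samples, with Klf1, the erythroid transcription factor, from 4.85 to 1.23 and Car1, the carbonic anhydrase, from 10.3 to 0.49, and none at 0 in a group. Their part in the falls of the mitosis list was not tested.

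DNA replication genes changed less. Of 47 tested members 8 fell (17.0%) and 2 rose, and in the reduced fit 6 fell and 2 rose. Lig1, the ligase that joins Okazaki fragments, was at 11.1, 9.23, 9.62 and 8.42 in the unstressed samples and 6.38, 5.61, 3.58 and 5.26 in the irradiated samples (log2 fold change -0.84 ± 0.16), and Rfc1, the large subunit of the clamp loader, at 36, 36.1, 33.8 and 35.9 in the unstressed samples and 20.3, 19.7, 19.1 and 19.4 in the irradiated samples (log2 fold change -0.84 ± 0.06). Rrm2, a subunit of ribonucleotide reductase, went the other way, 20.6, 12.6, 13.9 and 10.5 in the unstressed samples and 36.9, 33.6, 49.7 and 52.1 in the irradiated samples (log2 fold change 1.56 ± 0.20). Of 59 clustered histone genes, which are near-identical copies and therefore uncertain, 12 fell (20.3%) and 4 rose, and in the reduced fit 6 fell and 4 rose. Hist1h2ah was at 9.55, 8.27, 9.14 and 4.58 in the unstressed samples and 2.09, 1.61, 4.66 and 4 in the irradiated samples (log2 fold change -1.27 ± 0.31), with overlap between the groups. Hist1h2bp was at 6.22, 3.05, 5.73 and 4.74 in the unstressed samples and 12.3, 9.46, 26.2 and 21.7 in the irradiated samples (log2 fold change 1.65 ± 0.31).

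Promoters of mitosis genes shared a sequence, both in members that fell and in members that did not. TTTGAA, the letters of the cell cycle homology region that cell cycle repressor complexes read, was searched on both strands. Among members that fell, it occurred in 23 of the 29 with a promoter (79.3%), against 17.9% of all promoters in the table. Within 50 bases of the start site it occurred in 20 of them (69.0%) against 5.14% of all promoters, a window that was chosen after the values were seen. CCAAT was found in 22 of the 29 (75.9%) against 37.4% of all. Of the mitosis genes that did not fall, 20 of 29 had a promoter (69.0%). TTTGAA occurred in 14 of these (70%), within the same window in 13 (65%), and CCAAT in 13 (65%). Because fewer than 80% of these genes had a promoter, the difference was not tested. The promoters of Ndc80 (chr17:71526808-71527107, - strand, GRCm38.p6) and Cdk1 (chr10:69352863-69353162, - strand) are printed with TTTGAA or its reverse complement TTCAAA in capitals. They were chosen for a match within that window, in order of the size of the fall.
Ndc80: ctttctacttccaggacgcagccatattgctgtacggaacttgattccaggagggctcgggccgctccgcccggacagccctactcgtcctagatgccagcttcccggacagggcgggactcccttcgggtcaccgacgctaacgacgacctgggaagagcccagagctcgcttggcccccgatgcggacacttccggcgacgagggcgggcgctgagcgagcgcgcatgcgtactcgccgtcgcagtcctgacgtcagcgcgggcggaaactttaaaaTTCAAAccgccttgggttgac
Cdk1: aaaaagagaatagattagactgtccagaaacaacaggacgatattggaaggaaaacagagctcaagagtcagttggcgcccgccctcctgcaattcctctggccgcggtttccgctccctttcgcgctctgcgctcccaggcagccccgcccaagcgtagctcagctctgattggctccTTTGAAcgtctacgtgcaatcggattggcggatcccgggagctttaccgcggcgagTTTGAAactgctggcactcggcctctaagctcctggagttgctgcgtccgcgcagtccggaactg
In Ndc80 the match starts 29 bases after the start site and in Cdk1 the matches start 71 and 15 bases before it.

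Among genes that answer interferon, falls outnumbered rises. Of 45 tested members, 16 fell (35.6%) and 2 rose, with a median log2 fold change of -0.41. In the reduced fit 17 fell and 3 rose, with a median of -0.43. Ddx58, the RNA sensor RIG-I, had an RPKM of 36.6, 36.6, 37.3 and 38.5 in the unstressed samples and 16.1, 16.3, 16.4 and 15.2 in the irradiated samples (log2 fold change -1.19 ± 0.06, adjusted p = 1.01e-07). Cmpk2, a mitochondrial nucleotide kinase, was at 20.8, 16.9, 19.7 and 22.2 in the unstressed samples and 6.29, 5.87, 9.01 and 7.03 in the irradiated samples (log2 fold change -1.44 ± 0.13), and Iigp1, an immunity-related GTPase, at 15, 7.55, 17.5 and 5.87 in the unstressed samples and 5.32, 4.35, 4.24 and 2.58 in the irradiated samples (log2 fold change -1.28 ± 0.32). The spread of Iigp1 among unstressed samples was wide, whereas that of Ddx58 was narrow. Oas1a, which makes an RNA decay signal, and Ifit2, which binds foreign RNA, had log2 fold changes of -1.13 ± 0.16 and -1.08 ± 0.23. The 2 rises were those of Mx1, an antiviral GTPase, at 1.18 ± 0.10, and Bst2, which tethers viruses, at 0.60 ± 0.10. Myeloid cells are also known to express such genes, and the macrophage marker Emr1 fell in the same samples. Lyz2 and Csf1r were lower by less than the limit, and Cd14 was higher. The summed macrophage markers overlapped between the groups, and their part in these falls was not tested.

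Most genes of ribosome biogenesis rose. Of 48 tested members, 31 rose (64.6%) and none fell, with a median log2 fold change of 0.72. Without irradiated samples 1 and 2, 28 rose, none fell and the median was 0.69. Utp20, a component of the small subunit processome, had an RPKM of 16.8, 15.9, 14.4 and 16.1 in the unstressed samples and 56, 60.1, 59.1 and 51.6 in the irradiated samples (log2 fold change 1.81 ± 0.07, adjusted p = 2.65e-08). Rrp12, an export factor of pre-ribosomes, was at 12.6, 11.5, 11.3 and 12.9 in the unstressed samples and 31.5, 33.4, 33.7 and 31.6 in the irradiated samples (log2 fold change 1.40 ± 0.07), and Rrp1b, a nucleolar protein, rose from 9.91 to 22.9. The initiation factor of RNA polymerase I Rrn3 had a log2 fold change of 1.16 ± 0.06, its subunit Polr1b 0.95 ± 0.06, the nucleolar methyltransferase fibrillarin, Fbl, 0.86 ± 0.10 and nucleolin, Ncl, 0.75 ± 0.09.

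Other parts of the translation machinery moved less. Of 81 cytosolic ribosomal proteins 3 rose and none fell, and in the reduced fit 3 of 80 rose. The largest rise was that of Rps27l, a p53-responsive relative of Rps27, with an RPKM of 36.5, 27.6, 39.2 and 26.7 in the unstressed samples and 85.8, 89.3, 79.6 and 57.5 in the irradiated samples (log2 fold change 1.25 ± 0.16), followed by Rpl34 and Rps19, with 0.78 ± 0.22 and 0.75 ± 0.09. The median of the list was 0.31, and 0.13 in the reduced fit. Their median RPKM in unstressed samples was 88.2, a level at which the limit on duplicate reads acts. Of 61 translation factors 3 rose and 2 fell (2 and 1 in the reduced fit), with Eif4ebp1, the inhibitor of cap-dependent initiation, from 20.4 to 36 and Eef2k, the kinase that stops elongation, from 10.2 to 5.05. Of 20 aminoacyl-tRNA synthetases 3 rose (15%), with the same number in the reduced fit. These were Mars, Cars and Iars, with log2 fold changes of 0.74 ± 0.06, 0.70 ± 0.08 and 0.69 ± 0.06. Of 76 proteins of the mitochondrial ribosome 8 rose and none fell, led by Mrps6 (from 8.51 to 20.5) and Mrps28 (from 15.9 to 29.8), and in the reduced fit 14 rose. The share of rises, 10.5%, was below that of all genes, and 18.4% in the reduced fit was above it.

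Among 80 tested genes of the respiratory chain 4 rose and 1 fell, and in the reduced fit 3 and 1 of 79. Cox6b2, a subunit of cytochrome c oxidase known from the testis, had an RPKM of 2.09, 1.41, 1.95 and 1.9 in the unstressed samples and 37.5, 30, 56.7 and 54.6 in the irradiated samples. Its log2 fold change of 4.23 ± 0.20 (adjusted p = 8.87e-08) far exceeded that of Ndufb6, a subunit of complex I, at 0.81 ± 0.14. Cox6a2, the muscle form of another subunit, fell from 14.1 to 6.59. The proteasome gave no DEG among 38 genes in either fit, and its most abundant member, Psmb8, was at 85.5 and 66.4 (log2 fold change -0.36 ± 0.08). Splicing factors gave 1 DEG among 31 genes and none among 30 in the reduced fit, and Hnrnpf, an abundant RNA-binding protein of that kind, was at 102 and 113 (log2 fold change 0.15 ± 0.07).

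Of 40 genes of autophagy and lysosomes 8 fell (20%) and 2 rose, and in the reduced fit 8 fell and 3 rose. Map1lc3a, which coats autophagosomes, fell from 9.27 to 4. Ulk1, the kinase that starts autophagy, rose from 11.5 to 27. Among 29 genes of the unfolded protein response 4 rose (13.8%, near the share of all genes), with the same number in the reduced fit, including Shmt2, the mitochondrial serine hydroxymethyltransferase (from 35 to 84.2), and Ppp1r15a, which restores translation (from 16.4 to 34.7). Of 24 heat shock genes 2 rose and 1 fell (2 and 2 of 23 in the reduced fit). Hspa1a and Hspa1b, near-identical copies that share reads, had log2 fold changes of 1.37 ± 0.23 and 1.00 ± 0.27, and Hspa4l, a co-chaperone of the same family, was at 8.49, 8.13, 8.45 and 8.21 in the unstressed samples and 2.7, 2.48, 2.31 and 2.33 in the irradiated samples (log2 fold change -1.58 ± 0.11).

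Of 22 glycolysis genes 4 fell (18.2%) and 2 rose (9.09%), with the same counts in the reduced fit. The mean RPKM went from 7.06 to 2.32 for Aldoc, an aldolase, from 14.6 to 6.15 for Hk3, a hexokinase, and from 0.859 to 4.03 for Ldhb, a subunit of lactate dehydrogenase. Of 24 genes of cholesterol metabolism 3 rose and 2 fell (4 and 2 in the reduced fit), shares near or below those of all genes. The exporter Abca1 was at 40.1, 42.2, 37.4 and 35.7 in the unstressed samples and 19.4, 21.8, 17.6 and 17 in the irradiated samples (log2 fold change -1.02 ± 0.09). The exporter Abcg1 was at 32.9, 33.2, 32.5 and 29.8 in the unstressed samples and 18, 14, 13.7 and 12.2 in the irradiated samples (log2 fold change -1.14 ± 0.11). Both fell, and Idi1, an enzyme of synthesis, had a log2 fold change of 0.64 ± 0.13. Among 310 zinc finger proteins, 30 rose (9.68%) and 16 fell (5.16%), and in the reduced fit 40 of 307 rose (13%) and 13 fell (4.23%). The share of falls was below that of all genes in both fits. That of rises was below it in the fit of all samples and near it in the reduced fit. Zfp365, Zfp428 and Zfp92 had the largest rises, with log2 fold changes of 5.22 ± 0.15, 1.91 ± 0.17 and 1.72 ± 0.20.

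Several of the largest falls belonged to genes known from other cells or to short loci. Car1 was at 17.3, 6.84, 12.5 and 4.59 in the unstressed samples and 0.648, 0.334, 0.667 and 0.31 in the irradiated samples (log2 fold change -3.31 ± 0.35), and it is 1 of the 7 erythroid markers that fell. Their summed values are given above. Crisp3, a secreted cysteine-rich protein, was at 6.45, 8.08, 8.31 and 5.63 in the unstressed samples and 0.466, 0.9, 0.2 and 0.186 in the irradiated samples (log2 fold change -3.07 ± 0.24). Sele, the E-selectin of endothelium, fell from 8.59 to 0.947. The summed RPKM of 9 neutrophil markers was 41.0 to 255.6 in unstressed and 75.7 to 219.6 in irradiated samples, so these groups overlapped. Serpinb1a, an inhibitor of neutrophil proteases, was at 70, 67.3, 75.9 and 62.7 in the unstressed samples and 13.3, 9.52, 8.7 and 11.7 in the irradiated samples (log2 fold change -2.63 ± 0.12), the most abundant gene among the 12 falls. Cacna1i, a subunit of T-type calcium channels, was at 26.4, 31.6, 26.9 and 35.3 in the unstressed samples and 4.33, 3.95, 3.78 and 5.8 in the irradiated samples (log2 fold change -2.63 ± 0.14). Its irradiated values were all below 6.

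MicroRNA loci made up 1 of the 12 largest rises and 4 of the 12 largest falls. The libraries were made from fragmented total RNA, so that these values count fragments of the primary or host transcript over the hairpin and not the mature microRNA. The hairpins of Mir34a, Mir340 and Mir681 span 102, 98 and 110 bases in the annotation, and the mean RPKM of Mir34a in the irradiated samples corresponded to 15.3 reads. Those of Mir340 corresponded to 9.88 reads in unstressed and 0.99 in irradiated samples, and those of Mir681 to 6.43 and 0.49. These falls therefore rest on few reads, in irradiated samples of lower estimated depth. Mir34a, a known p53 target (chr4:149442563-149442664, + strand, mm9), was at 0.953, 0, 0 and 0 in the unstressed samples and 17.4, 26.5, 29.9 and 20.2 in the irradiated samples (log2 fold change 5.17 ± 0.34, adjusted p = 9.68e-07). Mir15a was at 12.7, 14, 14 and 28.5 in the unstressed samples and 1.93, 2.48, 0 and 1.53 in the irradiated samples (log2 fold change -3.36 ± 0.50), Mir374b at 9.21, 5.62, 9.65 and 6.58 in the unstressed samples and 0, 0, 2.92 and 0 in the irradiated samples, Mir340 at 9.92, 10.9, 12 and 11.7 in the unstressed samples and 1.65, 2.12, 2.83 and 0 in the irradiated samples and Mir681 at 6.19, 3.88, 3.57 and 11.4 in the unstressed samples and 0, 1.89, 0 and 1.17 in the irradiated samples. The rule by which these 5 loci were named required that the groups do not overlap. Across all 226 tested microRNA loci, 15 rose (6.64%) and 22 fell (9.73%). By the reduced fit, 23 of 195 rose (11.8%) and 18 fell (9.23%), so that rises then outnumbered falls. The mature sequences of RefSeq are printed with the seed, bases 2 to 8, in capitals, to identify the loci.
mmu-miR-34a-5p: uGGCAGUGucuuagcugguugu
mmu-miR-34a-3p: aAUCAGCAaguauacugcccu
mmu-miR-15a-5p: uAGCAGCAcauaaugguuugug
mmu-miR-15a-3p: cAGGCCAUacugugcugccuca
mmu-miR-374b-5p: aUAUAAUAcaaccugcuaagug
mmu-miR-374b-3p: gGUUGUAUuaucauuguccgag
mmu-miR-340-5p: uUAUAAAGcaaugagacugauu
mmu-miR-340-3p: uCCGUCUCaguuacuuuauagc
mmu-miR-681: cAGCCUCGcuggcaggcagcu
No seed was shared between these sequences.

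Small nucleolar RNAs, guides of ribosomal RNA modification that lie in introns of host genes, had a higher share of rises than protein-coding genes (12.2%), a difference that was not tested. Of 80 tested loci, 20 rose (25%) and 3 fell (3.75%), and in the reduced fit 21 and 4 of 79. Snord104 and Snora65 were the most abundant of all upregulated DEGs, with an RPKM of 97.2, 102, 96.9 and 98.5 in the unstressed samples and 173, 171, 209 and 212 in the irradiated samples for Snord104 (log2 fold change 0.94 ± 0.09). Snora65 was at 109.6, 107, 133 and 92.7 in the unstressed samples and 171, 178, 162 and 158 in the irradiated samples (log2 fold change 0.61 ± 0.10), near the limit for a call. Snord35b went the other way, 127, 122, 131 and 134 in the unstressed samples and 75.2, 50.8, 53.2 and 77.9 in the irradiated samples (log2 fold change -1.02 ± 0.13). These 3 loci are 70, 130 and 87 bases long in the order given. Among abundant protein-coding genes, Cd83, a marker of activated B cells, rose from 80.3 to 134 and Grap, an adaptor, from 97 to 146, and Hmha1, a GTPase-activating protein, fell from 113 to 74.9, with log2 fold changes of 0.73 ± 0.10, 0.58 ± 0.08 and -0.58 ± 0.07.

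Long genes fell more often. Among 433 protein-coding genes that span at least 200 kb on the genome, 21.9% fell and 11.1% rose, and among 1601 that span less than 5 kb, 10.1% fell and 15.7% rose. The shares of falls in the classes between, from 5 to 20 kb up to 100 to 200 kb, were 11.3%, 12.6%, 14.4% and 17.4%. The median log2 fold change went from 0.12 in the shortest to -0.09 in the longest class, and from 0.08 to -0.25 in the reduced fit, in which 30.6% of 408 genes of the longest and 11.1% of 1492 of the shortest class fell. Exonic length showed a smaller range, with falls from 11.8% of 628 genes under 1 kb to 14.5% of 1139 genes of at least 8 kb. Genes of the classes also differed in level, with a median unstressed RPKM of 13.5 in the shortest and 6.99 in the longest class of span.

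The response was set against that of Trp53-/- B cells, with 2 unstressed and 2 irradiated samples, in which the same question was asked without p53. Trp53 reads were still found in these samples, at an RPKM of 21.6 and 21.7 in unstressed and 40.5 and 41.8 in irradiated samples, below the 46.2 and 61.8 of Trp53+/+ B cells. The files give 1 value per gene, so that the disrupted part cannot be seen apart. The change differed between genotypes for 2594 of the tested genes (18.8%) at an adjusted p under 0.05 in limma. Among upregulated DEGs the share was 42.4% (726 genes, 605 of them with the larger change in Trp53+/+ cells), and among downregulated DEGs 16.1% (274 genes, 225 of them with the larger fall). DEGs were chosen on the Trp53+/+ samples, which favours a larger change there.

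Cdkn1a and Bbc3 were almost flat without p53. The log2 fold change of Cdkn1a was 0.02 in Trp53-/- B cells, a difference of 5.81 ± 0.21 (adjusted p = 1.17e-08), and that of Bbc3 was 0.01, a difference of 4.34 ± 0.20 (adjusted p = 4.18e-08). Ikbke and Cd80 behaved alike, with -0.10 and 0.35 in Trp53-/- cells and differences of 2.62 ± 0.31 and 2.88 ± 0.19. The fall of S1pr3 differed too, at -0.55 in Trp53-/- cells (difference -2.21 ± 0.22, adjusted p = 3.57e-05). Fas lay between, with 1.46 in Trp53-/- cells (difference 1.29 ± 0.32, adjusted p = 0.0149). For other genes a difference was not detected with 2 samples per group. Cdc25b had a log2 fold change of -2.56 in Trp53-/- cells (difference -0.09 ± 0.24, adjusted p = 0.841), Itgb7 -1.89 (difference -0.33 ± 0.23, adjusted p = 0.365), Ddx58 -1.01 (difference -0.18 ± 0.12, adjusted p = 0.313) and Utp20 1.50 (difference 0.31 ± 0.11, adjusted p = 0.0718). Over all 3414 DEGs, a genotype difference was found for 1000. Among the lists, it was found for 8 of the 8 DEGs in p53 feedback, 12 of 16 pro-apoptotic, 8 of 35 mitosis, 1 of 18 interferon-stimulated and 16 of 31 ribosome biogenesis DEGs. The share of mitosis lay between that of the downregulated DEGs and that of all DEGs. In ribosome biogenesis, Rrp12 and Rrp1b had the larger rise without p53, with 1.87 and 1.96 in Trp53-/- cells and differences of -0.47 ± 0.11 and -0.79 ± 0.16 (adjusted p = 0.0109 and 0.00523).

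**Figure D5:**
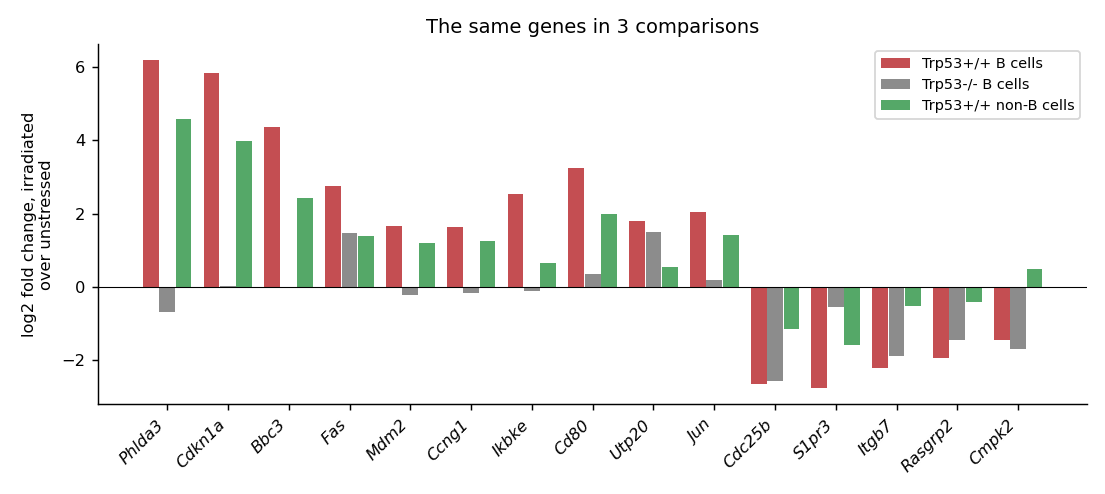
Log2 fold change of 15 genes in Trp53+/+ B cells, Trp53-/- B cells and Trp53+/+ non-B cells. Bars show irradiated over unstressed samples on the scale of log2(RPKM + 0.5), from 4 against 4, 2 against 2 and 4 against 4 samples, and the genes were chosen after their values were seen. Cdkn1a reaches 5.83, 0.02 and 3.99, whereas Cdc25b falls to -2.65, -2.56 and -1.15.

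Non-B cells of Trp53+/+ mice, 4 unstressed and 4 irradiated samples, gave the second comparison. B and non-B samples can come from the same spleen and were not paired in the fit. The change differed between B and non-B cells for 4057 genes (29.4%). Among upregulated DEGs the share was 54.1% (926 genes, 921 with the larger change in B cells) and among downregulated DEGs 60.0% (1020 genes, 1010 with the larger fall), with the same caution on how DEGs were chosen. For Cdkn1a and Bbc3 the change was smaller in non-B cells. Cdkn1a had a log2 fold change of 3.99 there (difference 1.85 ± 0.24, adjusted p = 4.84e-05) and Bbc3 2.42 (difference 1.93 ± 0.12, adjusted p = 3.45e-07). Mybl1 did not differ detectably, with 2.51 (difference -0.02 ± 0.41, adjusted p = 0.973). Over all 3414 DEGs, 1946 differed between B and non-B cells. Ribosome biogenesis differed for all 31 of its DEGs, with Utp20 at 0.55 and Rrp12 at -0.30 in non-B cells (differences 1.26 ± 0.14 and 1.70 ± 0.14). Interferon-stimulated genes differed for 15 of 18 DEGs, with Ddx58 at 0.15 and Cmpk2 at 0.48 in non-B cells. Mitosis genes differed for 4 of 35 DEGs, among them Cdc25b, at -1.15 (difference -1.50 ± 0.19, adjusted p = 4.78e-05).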

How the data were processed

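RNA-Seq libraries of B220-enriched splenic B cells were made with a kit that does not record strand, after removal of ribosomal RNA. The authors masked bases of low quality, used TopHat for alignment to mm9, removed duplicates down to a single read, counted reads per UCSC gene with featureCounts 1.4.5 and deposited RPKM, scaled to reads on exons (1 value per gene and sample). The processing notes name TopHat2 2.0.8, and the study's methods another version. The 8 samples of the comparison hold no read counts, and their depth was estimated from the steps between low RPKM values and exonic lengths, of which 58.6% to 65.9% lay within 0.1 of a whole number of reads. It is therefore an estimate. Limma 3.58.1 in R 4.3.3 (lmFit and eBayes with trend) was fitted to log2(RPKM + 0.5) of genes above an RPKM of 1 in at least 1 of the 8 samples, with Benjamini-Hochberg adjustment over all genes tested. Fold changes on this scale understate changes of low genes, and ± is the standard error. The genotype and cell type differences are interaction terms of limma fits that also hold the Trp53-/- B or the non-B samples. Single values were compared by exact permutation tests (two-sided, 4 against 4). Steps across genes were tested on simulated data.

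Samples were grouped by their labels, which number them without naming animals. The study's methods describe separate mice, but where samples share an animal, p-values measure technical spread. Same-numbered unstressed and irradiated B samples did not deviate together, with correlations of 0.010 to 0.091, and were not paired. The non-B cells are the flow-through of the B220 column, so B and non-B samples can share an animal. That pairing was not checked, and the main cell type fit treats the samples as independent. Members and gene lists were chosen with earlier results of these data known. Named genes were the 12 largest rises and falls with a mean RPKM of at least 5 and no overlap between groups, the 5 most expressed DEGs per direction and up to 3 members per list. Annotation was found for 91.1% of tested genes. Alternatives included other pseudocounts, filters, scalings and samples left out, and a correction for duplicate removal was added after the values were seen. Some genes that the rule names are not reported here.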

Additional observations from a re-analysis of the deposited data

Results flagged for a closer look

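Among 276 groups of 4 samples, 8 held a sample far from the other 3 by Dixon's test, which chance gives in about 1 in 20 groups. In unstressed samples these were the highest value of Mir34a (0.953, against 0 in the other 3), the highest of Mir15a (28.5), the highest of Jun (22.1) and the lowest of Rfc1 (33.8). In irradiated samples these were the highest values of Mir374b (2.92), Ldhb (7.58) and Zfp92 (2.40) and of the summed dendritic cell markers (96.4). The response to IR differed between Trp53+/+ and Trp53-/- B cells for 1000 of the 3414 DEGs, and between B and non-B cells for 1946, by the interaction term of limma at an adjusted p under 0.05. The DEGs were chosen on samples that enter both tests.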

How the results depend on the processing

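The number of DEGs was 1333 (780 up, 553 down) with a log2 limit of 1 and 6878 (3367 up, 3511 down) without a limit. All other alternatives stayed within 1.5 times the 3414 DEGs, from 2616 (RPKM above 5) to 3630 (pseudocount 0.1). Quantile normalization gave 1560 up and 1824 down. Leaving out single replicates gave 3201 to 3521 DEGs (1553 to 1758 up, 1569 to 1822 down), 844 to 1022 genotype and 1762 to 1935 cell type differences. The same replicate numbers named no shared animal, and with the number as a replicate block 3423 genes (1705 up, 1718 down) were DEGs, with 937 genotype and 1985 cell type differences. Of 4 unstressed samples, 2 correlated best with their own number. The share of receptor genes above 0 was 20.4 percentage points higher in irradiated samples (13.5 to 26.97 with single samples left out), and 19.3 for an RPKM above 0.1 (exact permutation p = 0.0286). The number of genes above an RPKM of 1 was higher by 314.75 (p = 0.171, exact permutation), above 0.1 by 1898.75 (p = 0.0286, exact permutation), and for 5 the difference was -74.25. The mean log2 level of dendritic cell markers differed by -0.125, against a higher sum, and H2-K1 by -0.018 on the log2 scale under quantile normalization. With at most 2 mismatches, a p53 element was found in 0.379%, 0.0753% and 0.132% of upregulated, downregulated and all tested genes with a promoter, too few of which had one for a comparison. Of 122 named DEGs, 107 kept the call in all 22 alternatives. Cars, Cd22, Cox6a2, Eif4ebp1, Eif5a2, Gcsam, Grap, Hist1h2ah, Hist1h2bk, Hmha1, Hspa1b, Idi1, Ndufb6, Rpl34 and Snora65 lost it in at least 1. The causes were not tested. Depth limits the values of short loci and of genes near an RPKM of 0.1.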
